A study of Homo sapiens with 12 samples.

Results

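Cells that are moved from neutral to acid medium may follow the acidity step by step, or may answer mild acid differently from what the neutral and strongly acid media would lead one to interpolate. The contrast described here measured that departure in MDA-MB-231 cells, an established human triple-negative breast cancer line with a basal, mesenchymal-like state. For each gene, log2 expression at pH 6.9 was set against the midpoint of the group means at pH 7.4 and pH 6.4, and the difference is called the curvature. All 12 of the series' 12 libraries entered it, 4 per medium, with no choice of genes by their values. Every culture was of the same wild-type line and had grown at pH 7.4 before 24 h in medium of its set pH, so the pH 7.4 cultures differed from the acid ones only in the medium given last. The labels number the libraries as repeats 1 to 4 and do not state separate cultures, so p-values measure the spread between these libraries, which may be technical. The sample labels give pH 6.9 for the mild medium while the protocol gives pH 6.7; pH 6.9 is used here and lies midway between the other media.

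Acid outside a cell lowers the pH inside it, and cells export acid equivalents with proton pumps, sodium-proton exchangers and bicarbonate carriers. Acidity is known to slow glycolysis, to alter lipid synthesis, to switch on the integrated stress response, which reprogrammes translation and amino acid synthesis through ATF4, and to delay entry into DNA replication. Tumour tissue is often acid, and the mild and strong media span a range that such tissue can reach.

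Total counts ranged from 21060767 to 50643233 per library. Repeat 1 at pH 7.4 had 17841 detected genes and repeat 2 at pH 6.9 had 21628, against 23113 to 27384 in the others. Over the 5321 genes that differed between pH 6.4 and pH 7.4, repeat 3 at pH 6.4 lay a median 57.0% of the way from pH 7.4 to the other pH 6.4 libraries, where repeats 1, 2 and 4 lay at 91.9%, 135% and 125%. Repeats 2 and 4 at pH 6.4 also had the highest shares of the mitochondrial ribosomal RNA MT-RNR2, at 1.51% and 1.62% of counts against 0.791% to 1.18% in the other 10 libraries, and the part of this in the results was not tested. Repeat 3 at pH 6.4 stands apart from its group, and many results are given with and without that library. Exact two-sided permutation tests of 6 library measures between pH 6.9 and the other 8 libraries gave a lowest p of 0.105 (adjusted p = 0.63), for the share of MT-RNR2, where the smallest possible p was 0.00404. The markers of the line's basal mesenchymal state were abundant, with summed levels of 7725 to 8460.3 CPM (reads of a gene relative to the TMM-adjusted depth of its library, the unit of every level below) at pH 6.9. Leukocyte markers summed to 9.63 to 15.0 CPM and endothelial markers to 11.2 to 14.1 CPM in those libraries, with CD3E and CLDN5 at 0 counts in all 12. Fibroblast and muscle-like markers summed to 32.7 to 38.1 CPM at pH 6.9. Luminal epithelial markers summed to 1401 to 1664 CPM at pH 6.9, where the keratins KRT8 and KRT18 alone had means of 678 and 506 CPM. Of the 11 luminal markers listed, 8 had counts high enough to be tested.

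No gene passed the test of curvature at an adjusted p under 0.05 in edgeR's quasi-likelihood test, 0 higher and 0 lower at pH 6.9 among 17544 genes tested (0%). The lowest adjusted p was 0.323. At an unadjusted p under 0.05, 1058 genes lay above the midpoint (6.03%) and 967 below it (5.51%). The median curvature of all genes was 0.01 and its median size 0.15 on the log2 scale. The 2 steps that make up the curvature were unequal in their calls. Between pH 7.4 and pH 6.9, 55 genes rose (0.313%) and 72 fell (0.41%), while between pH 6.9 and pH 6.4, 1550 rose (8.83%) and 1438 fell (8.2%).

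Other analyses of the same counts made calls, as the bar chart of calls by setting shows. DESeq2 called 51 genes above the midpoint (0.291%) and 51 below it (0.291%), with 2267 genes at an unadjusted p under 0.05 and 5102 genes left without an adjusted p. limma voom with library quality weights called 740 above (4.22%) and 540 below (3.08%). It gave repeat 1 at pH 7.4 a weight of 0.147 and repeat 3 at pH 6.4 a weight of 0.384. edgeR itself called 587 above (3.35%) and 530 below (3.02%) once repeat 3 at pH 6.4 was left out. With repeat number as a block and all 12 libraries it called 0 and 0, with a lowest adjusted p of 0.077 and 3629 genes at an unadjusted p under 0.05. Of the 102 genes called by DESeq2, 101 were also called by voom and 102 by edgeR without that library, in the same direction. All 102 had an edgeR unadjusted p of at most 0.00274 over all 12 libraries, and their adjusted p lay between 0.323 and 0.325. The fits reuse the same libraries, so this overlap was likely from the start and adds no support to the calls. The same holds for each gene's adjusted p without repeat 3 at pH 6.4 given below. On simulated counts DESeq2 called 0.194% of unaltered genes, against 0.0471% for edgeR. In the data DESeq2 called 0.581% of genes, and some of its calls may be false. The simulated counts were drawn independently for each library, with no difference between pH 7.4 and pH 6.4. The simulated share therefore does not measure false calls in the data. The share of false calls among the DESeq2 calls was not measured. Genes given below with a pattern (peak, dip, early or late) are calls of DESeq2 that edgeR did not make on all libraries, and the other genes are given as values. Steps and curvatures are log2 values ± SE from edgeR over all 12 libraries, and levels are CPM, with ± SD over 4 libraries.

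**Figure D1:**
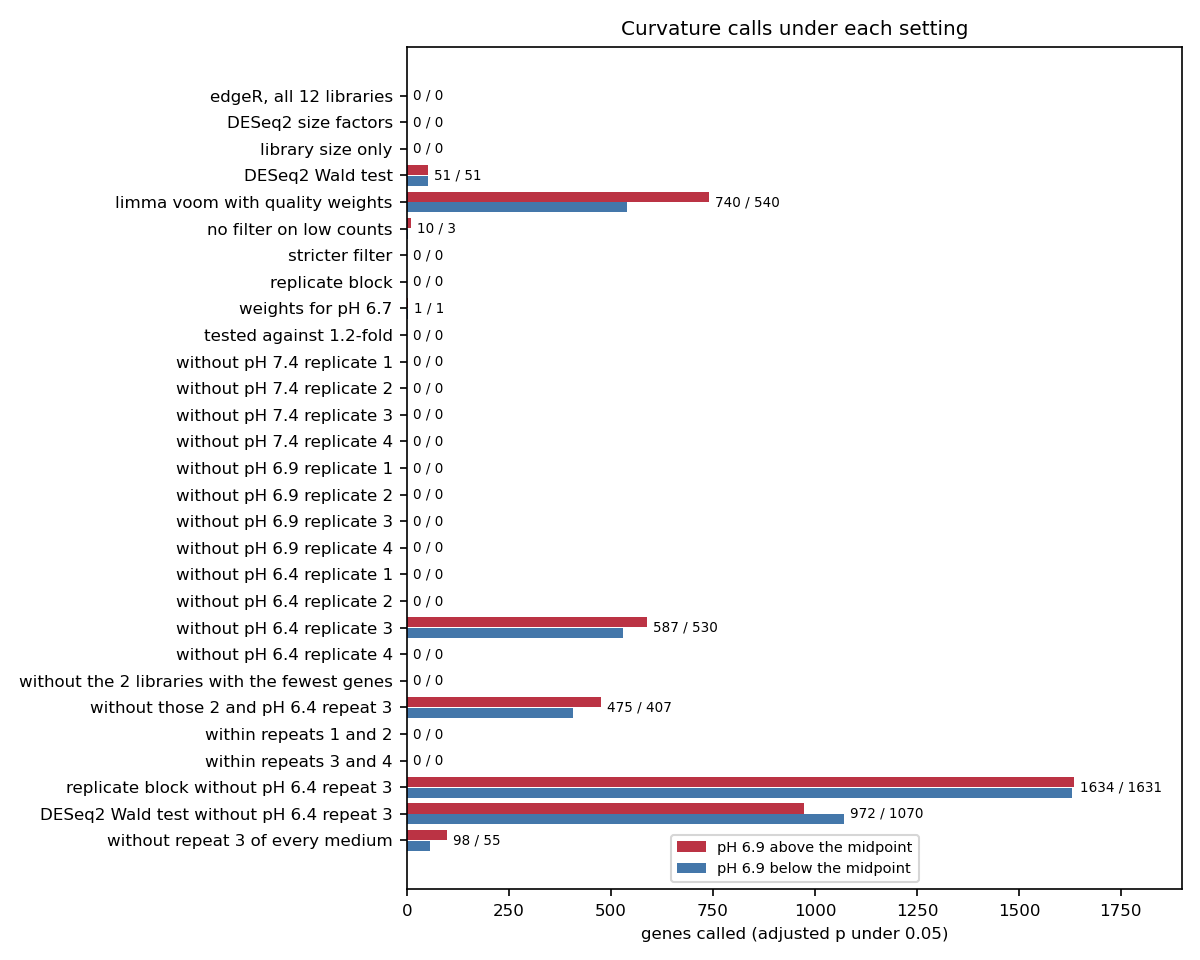
Genes called for curvature (x axis, number of genes at an adjusted p under 0.05) under each analysis setting (y axis), with red bars for pH 6.9 above the midpoint and blue bars for pH 6.9 below it, both counts printed at the bar. edgeR on all 12 libraries has 0 and 0, DESeq2 has 51 and 51, and edgeR without repeat 3 at pH 6.4 has 587 and 530.

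Most of the strong-acid change was made after pH 6.9. Over the 5321 genes that edgeR called between pH 6.4 and pH 7.4 (30.3%), the change reached at pH 6.9 was a median 30.5% of the whole change, with quartiles of 12.7% and 48.5%. The rises stood at a median 29.9% and the falls at 31.1%. By pH 6.9 library the median share was 27.0%, 37.3%, 24.4% and 30.6% in repeats 1 to 4, or 29.8% ± 5.57 (SD, n = 4). Those genes were picked by the whole change, which shares its end libraries with the curvature, so the shares are a description. For 3229 of them (60.7%) the 95% interval of the curvature lay within 0.5 of 0 on the log2 scale.

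By the steps that DESeq2 called, its 102 genes fell into patterns. There were 11 peaks and 10 dips at pH 6.9, 6 early rises and 9 early falls, where the first step passed and the second did not, and 32 late rises and 34 late falls, where only the second passed. edgeR without repeat 3 at pH 6.4 gave 27 peaks, 23 dips, 21 early rises, 13 early falls, 489 late rises and 532 late falls. Both steps use the same pH 6.9 libraries, so an error in those libraries moves the steps in opposite directions, and a step that did not pass is not shown to be absent. Irrespective of any test, the 4 pH 6.9 libraries lay above all other 8 in 92 genes (0.524%) and below all of them in 32 genes (0.182%).

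**Figure D2:**
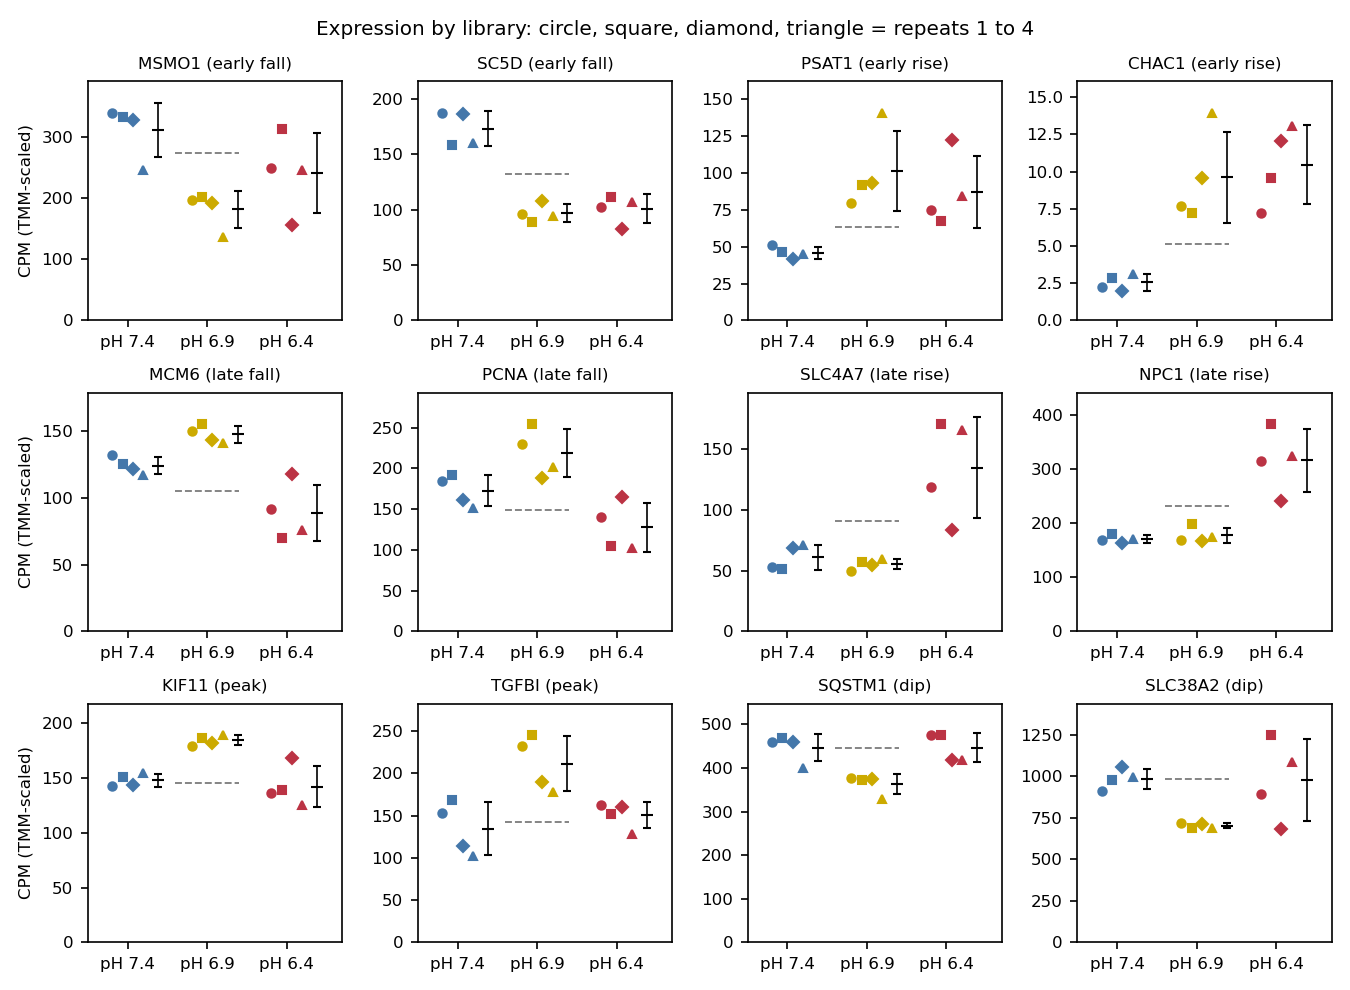
TMM-scaled CPM (y axis) of 12 genes in each library by medium (x axis), with circle, square, diamond and triangle for repeats 1 to 4, black bars for the mean and SD of 4 libraries, and a dashed grey line at the midpoint of the pH 7.4 and pH 6.4 means on the log scale. The pattern in brackets is that of the DESeq2 calls. MSMO1 and SC5D lie below the line and PSAT1, CHAC1, MCM6, PCNA and KIF11 above it, and the diamond of pH 6.4 lies nearer to pH 6.9 than the other pH 6.4 libraries do for MCM6, PCNA, SLC4A7, NPC1 and KIF11.

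Cholesterol synthesis genes, 20 of 25 of which fell from pH 7.4 to pH 6.4 (14.7% of all genes tested), had most of that change by pH 6.9. SC5D, MSMO1, SQLE and FDFT1, which act in the later part of the pathway, were the 4 of 25 tested members that DESeq2 called below the midpoint. No member was called above it (0.291% of all genes tested in each direction). SREBP-2, kept in check by cell sterol, is the known activator of these genes, together with NF-Y, which binds CCAAT boxes. The list's median first step was -0.65 and its median second step -0.07, so its median curvature was -0.28, against 0.01 for all genes. In edgeR 16 of the 25 lay below the midpoint and 1 above it at an unadjusted p under 0.05, against 5.51% and 6.03% of all genes tested. Without repeat 3 at pH 6.4, 10 were called below and 1 above, against 3.02% and 3.35%.

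The bases upstream of MSMO1 are shown because 15 of 18 matched cholesterol promoters (83.3%) held CCAAT on either strand within 250 bases, as did 9021 of all 27305 promoters (33.0%). They are from RefSeq GRCh38.p14, chr4:165327419-165327622, plus strand, and capitals mark CCAAT or its reverse complement ATTGG. The motifs to print were picked after matches of 10 motifs had been seen.
MSMO1: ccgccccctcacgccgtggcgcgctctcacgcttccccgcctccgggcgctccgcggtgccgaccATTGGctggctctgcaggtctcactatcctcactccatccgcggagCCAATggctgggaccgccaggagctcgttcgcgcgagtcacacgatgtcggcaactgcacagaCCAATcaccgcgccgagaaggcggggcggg
A match is a run of letters and not a measured binding site. The sterol element searched as TCACNCCAC was found in 1 of the 18 promoters (5.56%), against 0.875% of all promoters.

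SC5D, sterol C5-desaturase (ENSG00000109929, chromosome 11, 121292453 to 121308694), measured 188, 159, 186 and 160.2 CPM in repeats 1 to 4 at pH 7.4, 95.7, 88.8, 108 and 94.5 CPM at pH 6.9, and 102, 112, 82.2 and 107 CPM at pH 6.4. All pH 6.9 libraries lay below all pH 7.4 libraries and among those of pH 6.4. The first step fell by 0.84 ± 0.10 on the log2 scale (edgeR adjusted p = 0.00141), and the second was 0.06 ± 0.10 (adjusted p = 0.74). Its curvature was -0.45 ± 0.09, with an adjusted p of 0.323 in edgeR, 0.00946 in DESeq2 and 0.00428 in edgeR without repeat 3 at pH 6.4.

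MSMO1, the C4-methyl sterol oxidase (ENSG00000052802, chromosome 4, 165327623 to 165343160), measured 340.3, 333, 328 and 246 CPM at pH 7.4, 197, 202, 192 and 137 CPM at pH 6.9, and 249.5, 314, 156 and 247 CPM at pH 6.4. The pH 6.9 libraries lay below every pH 7.4 library, as the rule for naming early falls required. Of the 4 pH 6.4 libraries, 3 lay above every pH 6.9 library. Its curvature was -0.59 ± 0.16 (adjusted p = 0.325 in edgeR, 0.036 in DESeq2 and 0.00813 without repeat 3 at pH 6.4), and neither edgeR step passed, at adjusted p = 0.0671 and 0.132. SQLE, squalene epoxidase, had means of 61.4, 33.6 and 44.5 CPM from pH 7.4 to pH 6.4. It fell by 0.87 ± 0.17 in the first step (adjusted p = 0.0341), with a second step of 0.41 ± 0.17 (adjusted p = 0.117). Without repeat 3 at pH 6.4 the pattern of MSMO1 and SQLE was a dip and not an early fall.

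Of the 25 cholesterol genes, 9 fell in the first step in edgeR and 5 in the second, against 0.41% and 8.2% of all genes tested. Those of the first step included ACAT2, MVK, FDFT1, SQLE, LSS, HSD17B7, SC5D and DHCR7, with log2 changes from -0.53 in ACAT2 to -0.87 in SQLE. MVK, mevalonate kinase, did not share the shape: it fell in both steps, by 0.68 ± 0.10 (adjusted p = 0.00532) and 0.50 ± 0.10 (adjusted p = 0.00689), with a curvature of -0.09 (95% interval -0.28 to 0.10). Among the most abundant members, INSIG1, which retains SREBP in the endoplasmic reticulum, had a curvature of -0.42 ± 0.13. Fatty acid synthesis had a median curvature of -0.08 over 19 tested genes, 2 of which lay below the midpoint at an unadjusted p under 0.05.

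Among early rises were 3 genes of the integrated stress response. CHAC1, which degrades glutathione, PSAT1, an enzyme of serine synthesis, and PCK2, the mitochondrial phosphoenolpyruvate carboxykinase, reached by pH 6.9 about the level they had at pH 6.4. All are known targets of ATF4. They were the 3 of 33 tested members that DESeq2 called above the midpoint, and SLC38A2 was the 1 called below it (0.291% of all genes tested in each direction). The list as a whole had a median curvature of 0.08, with 7 members above the midpoint and 1 below it at an unadjusted p under 0.05, against backgrounds of 6.03% and 5.51%.

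CHAC1 (ENSG00000128965, chromosome 15, 40952962 to 40956519) measured 2.24, 2.87, 1.95 and 3.12 CPM at pH 7.4, 7.66, 7.24, 9.56 and 14.0 CPM at pH 6.9, and 7.19, 9.54, 12.1 and 13.1 CPM at pH 6.4. Every acid library exceeded every pH 7.4 library, which the naming rule required of those at pH 6.9, and the acid media overlapped. The first step was a rise of 1.90 ± 0.25 (3.72-fold, edgeR adjusted p = 0.00266), and the second was 0.12 ± 0.24 (adjusted p = 0.774). The curvature was 0.89 ± 0.20, with adjusted p = 0.323 in edgeR, 0.018 in DESeq2 and 0.0211 without repeat 3 at pH 6.4.

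PSAT1 (ENSG00000135069, chromosome 9, 78297143 to 78330093) measured 51.4, 46.2, 41.8 and 44.7 CPM at pH 7.4, 79.3, 91.9, 93.4 and 141 CPM at pH 6.9, and 74.6, 67.6, 122 and 84.4 CPM at pH 6.4. It rose by 1.14 ± 0.19 on the log2 scale in the first step (adjusted p = 0.0109), and its curvature of 0.68 ± 0.16 had adjusted p = 0.323 in edgeR, 0.0205 in DESeq2 and 0.00552 without repeat 3 at pH 6.4. PCK2 rose 2.08-fold, from 10.8 ± 1.64 to 22.6 ± 3.50 CPM (SD, n = 4; adjusted p = 0.0133), and stood at 19.5 ± 5.32 CPM at pH 6.4. The other members that rose in the first step were SESN2, MTHFD2 and ATF4, by 0.83, 0.68 and 0.54 on the log2 scale. Of the 33 members 6 rose in the first step and 10 in the second, against 0.313% and 8.83% of all genes tested. MTHFD2 rose in both (second step 0.52, adjusted p = 0.0124). SLC7A5, an abundant member and a leucine transporter, had a curvature of 0.16 ± 0.14.

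The PSAT1 promoter is shown as a stress-response counterpart to that of MSMO1, with 3 matches to CCAAT, again in capitals (RefSeq GRCh38.p14, chr9:78296875-78297124, plus strand).
PSAT1: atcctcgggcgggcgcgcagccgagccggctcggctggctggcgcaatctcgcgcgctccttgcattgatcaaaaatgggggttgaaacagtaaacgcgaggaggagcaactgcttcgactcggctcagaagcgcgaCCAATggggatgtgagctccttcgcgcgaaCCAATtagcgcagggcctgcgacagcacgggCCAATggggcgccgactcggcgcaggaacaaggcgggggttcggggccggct
CCAAT was held by 16 of 28 matched promoters of this list (57.1%). The C/EBP-ATF element searched as TGATGNAAT was in none of the 28 windows and in 0.916% of all promoters. These letters cover only 250 bases before 1 listed start per gene.

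Further early changes that DESeq2 called, at adjusted p from 0.0125 to 0.0422, were those of APOL6, RELN, FAM117A and SERPINE2. APOL6, an apolipoprotein L gene, rose from 36.9 ± 3.06 to 53.7 ± 5.72 CPM in the first step (edgeR adjusted p = 0.0381) and stood at 46.5 ± 5.84 CPM at pH 6.4. RELN, which encodes the secreted protein reelin, fell from 8.12 ± 1.68 to 3.30 ± 0.907 CPM (adjusted p = 0.0349), and FAM117A from 7.37 ± 0.416 to 3.78 ± 0.391 CPM (adjusted p = 0.00725). SERPINE2, a secreted protease inhibitor, fell from 41.0 ± 5.13 to 26.0 ± 2.88 CPM (adjusted p = 0.0381) and stood at 31.7 ± 5.61 CPM at pH 6.4. Their curvatures were 0.37 ± 0.09 for APOL6, -0.94 ± 0.23 for RELN, -0.58 ± 0.13 for FAM117A and -0.47 ± 0.12 for SERPINE2. Without repeat 3 at pH 6.4 edgeR called all 4 (adjusted p = 0.0211 for APOL6, 0.0154 for RELN, 0.0163 for FAM117A and 0.0228 for SERPINE2), and RELN was then a dip.

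DNA replication genes fell late, with most of their change between pH 6.9 and pH 6.4. All 40 tested members of the replication and G1/S list had estimates above the midpoint, as did 9109 of the 17544 genes tested. The list's median curvature was 0.41, made of a median first step of 0.20 and a median second step of -0.66. At an unadjusted p under 0.05, 35 of 40 lay above the midpoint and 0 below it. DESeq2 called 7 of 40 above (0.291% of all genes tested), voom 35 (4.22%), and edgeR without repeat 3 at pH 6.4 34 (3.35%). In edgeR, 35 of the 40 fell between pH 6.9 and pH 6.4 (8.2% of all genes tested), and none passed between pH 7.4 and pH 6.9. Repeats 1 and 2 alone gave a median curvature of 0.51, and repeats 3 and 4 alone gave 0.33.

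**Figure D3:**
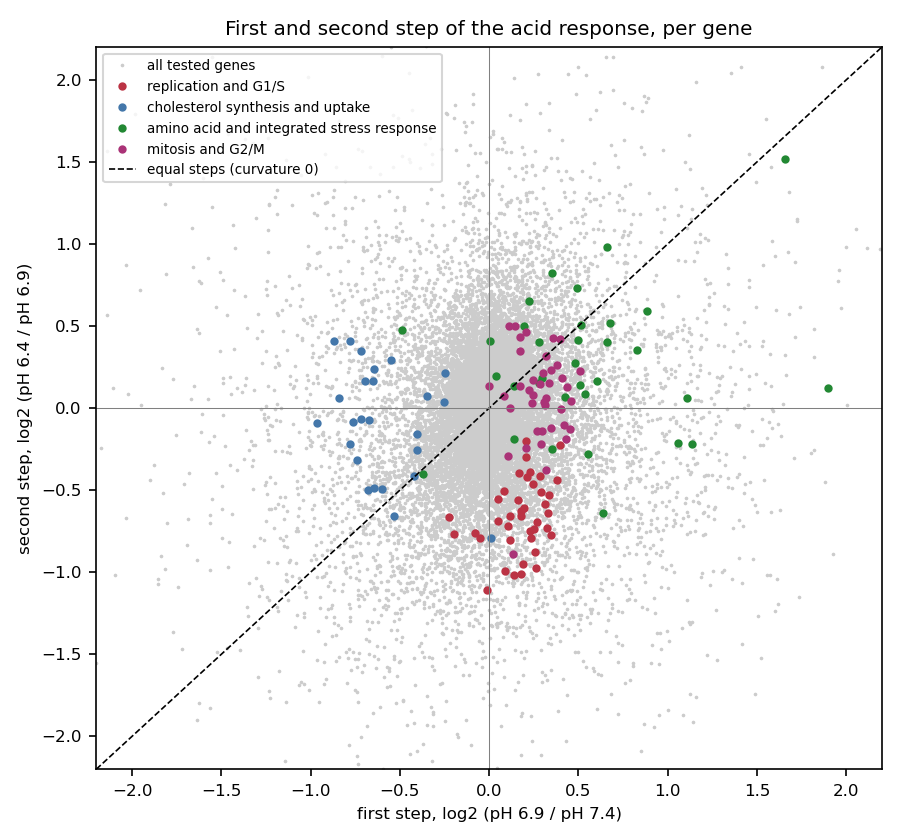
Log2 change from pH 7.4 to pH 6.9 (x axis) against log2 change from pH 6.9 to pH 6.4 (y axis) for all tested genes (grey) and 4 lists (colours), with a dashed line where both steps are equal; 64 genes lie outside the axes. The replication genes (red) sit to the right of and below the line, and 23 of the 25 cholesterol genes (blue) to its left and above it. The axes share the pH 6.9 libraries, so the tilt of the grey cloud is not a result.

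MCM6, a subunit of the replicative helicase (ENSG00000076003, chromosome 2, 135839626 to 135876426), measured 132, 125, 122 and 118 CPM at pH 7.4, 150.5, 156, 144 and 141 CPM at pH 6.9, and 91.5, 70.3, 118 and 75.8 CPM at pH 6.4. The 4 pH 6.9 libraries were the highest of all 12, and repeat 3 at pH 6.4 lay close to the pH 7.4 libraries. The first step was 0.25 ± 0.13 (adjusted p = 0.467), and the second fell by 0.73 ± 0.13 (adjusted p = 0.00415). Its curvature was 0.49 ± 0.11, with adjusted p = 0.323 in edgeR, 0.018 in DESeq2 and 0.00226 without that library.

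PCNA, the sliding clamp of DNA polymerase (ENSG00000132646, chromosome 20, 5114953 to 5126626), measured 185, 192, 161 and 152 CPM at pH 7.4, 230.1, 255, 188 and 202 CPM at pH 6.9, and 140.0, 105, 165 and 102 CPM at pH 6.4. The mild libraries overlapped the neutral ones and lay above all strong-acid ones. The second step fell by 0.77 ± 0.15 (adjusted p = 0.00535) and the curvature was 0.56 ± 0.12 (adjusted p = 0.323 in edgeR, 0.018 in DESeq2 and 0.0057 without repeat 3 at pH 6.4). POLE2, a subunit of DNA polymerase epsilon, had means of 28.3 ± 1.24, 35.5 ± 3.63 and 22.7 ± 5.85 CPM and a curvature of 0.48 ± 0.13. The remaining DESeq2 calls of the list were FEN1, LIG1, RRM2 and TYMS, with curvatures from 0.41 to 0.48, listed here after their values were seen. The abundant helicase subunits MCM3 and MCM7 had curvatures of 0.51 ± 0.14 and 0.25 ± 0.07.

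MCM6 was 1 of 3 of the 33 matched replication promoters (9.09%) with the E2F site letters TTTCGCGC, which 0.469% of all promoters held. E2F factors are known activators of these genes at the G1/S boundary. The 250 bases before its start are printed for that reason, on the minus strand at chr2:135876444-135876693 of GRCh38.p14 (RefSeq), with both matches in capitals as their reverse complement GCGCGAAA.
MCM6: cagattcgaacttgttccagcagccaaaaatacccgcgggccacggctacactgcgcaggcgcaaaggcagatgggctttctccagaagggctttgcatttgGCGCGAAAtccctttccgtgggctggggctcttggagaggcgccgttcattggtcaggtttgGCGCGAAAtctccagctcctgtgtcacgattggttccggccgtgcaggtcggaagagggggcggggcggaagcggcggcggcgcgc

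The mitosis genes that DESeq2 called, KIF11 and TOP2A, lay above the midpoint. The list's median curvature was 0.10, from a median first step of 0.30 and second step of 0.09, and 12 of 40 tested members lay above the midpoint at an unadjusted p under 0.05, with 0 below. Without repeat 3 at pH 6.4, edgeR called 9 above and 0 below, against 3.35% and 3.02% of all genes tested. In edgeR 5 members rose in the first step (0.313% of all genes tested), namely CCNB2, CDK1, BIRC5, TOP2A and ASPM, by 0.40 to 0.46 on the log2 scale. TOP2A, the topoisomerase that untangles chromosomes, had means of 616 ± 53.8, 831 ± 33.5 and 729 ± 77.1 CPM, and its curvature of 0.31 ± 0.08 had adjusted p = 0.323 in edgeR, 0.0364 in DESeq2 and 0.0195 without repeat 3 at pH 6.4. ANLN, which scaffolds the cleavage furrow, had a curvature of 0.24 ± 0.08.

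KIF11, the kinesin that drives spindle poles apart (ENSG00000138160, chromosome 10, 92593286 to 92655395), measured 143, 151, 143 and 155 CPM at pH 7.4, 179, 187, 182 and 189 CPM at pH 6.9, and 136, 139, 168 and 125 CPM at pH 6.4. The 4 mild libraries exceeded all other 8, as the rule for naming peaks required, and the nearest was repeat 3 at pH 6.4. The first step was 0.32 ± 0.09 (edgeR adjusted p = 0.113), the second fell by 0.38 ± 0.09 (adjusted p = 0.0109), and pH 6.4 differed from pH 7.4 by -0.06 ± 0.09 (adjusted p = 0.66). Its curvature was 0.35 ± 0.07 (adjusted p = 0.323 in edgeR, 0.018 in DESeq2 and 0.0031 without repeat 3 at pH 6.4).

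The stretch before KIF11 is given because 26 of 33 matched mitosis promoters (78.8%) held CCAAT, here once and as ATTGG in capitals (RefSeq GRCh38.p14, chr10:92592880-92593129, plus strand).
KIF11: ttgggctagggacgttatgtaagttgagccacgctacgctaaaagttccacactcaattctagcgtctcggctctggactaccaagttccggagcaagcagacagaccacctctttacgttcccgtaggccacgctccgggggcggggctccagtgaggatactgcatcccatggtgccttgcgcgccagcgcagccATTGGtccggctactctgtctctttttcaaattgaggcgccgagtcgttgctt

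The other named peaks were KIF15, ZWILCH and TGFBI, and the naming rule required their mild libraries too to exceed all others. KIF15, a kinesin that works beside KIF11, measured 49.1, 51.01, 45.8 and 55.3 CPM at pH 7.4, 68.2, 67.4, 66.9 and 70.1 CPM at pH 6.9, and 47.0, 48.9, 65.2 and 46.5 CPM at pH 6.4. Its mild libraries lay within 66.9 to 70.1 CPM and above all others, with repeat 3 at pH 6.4 just under them. The curvature was 0.42 ± 0.09 (adjusted p = 0.323 in edgeR, 0.018 in DESeq2 and 0.00248 without that library). ZWILCH, a kinetochore protein, had 50.7 to 53.5 CPM at pH 6.9 against 36.8 to 46.4 CPM elsewhere, and a curvature of 0.30 ± 0.08. Without repeat 3 at pH 6.4 it was called (adjusted p = 0.0179) as a late fall and not a peak.

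TGFBI, a matrix protein known to be induced by TGF-beta (ENSG00000120708, chromosome 5, 136028895 to 136063818), measured 153, 168, 114 and 102 CPM at pH 7.4, 232, 246, 190.1 and 178 CPM at pH 6.9, and 163, 152, 159.7 and 128 CPM at pH 6.4. Its 4 mild libraries were the highest, as the naming rule required, so the mild library exceeded both others within each repeat number. The curvature was 0.57 ± 0.13, with adjusted p = 0.323 in edgeR, 0.077 with the repeat block, 0.0206 in DESeq2 and 0.0213 without repeat 3 at pH 6.4. The TGF-beta and BMP list around it had a median curvature of -0.01 over 27 tested genes, with 4 above and 3 below the midpoint at an unadjusted p under 0.05.

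The dips that DESeq2 called included SLC38A2, SQSTM1, TMEM171 and CLEC2B, with means lower at pH 6.9 than in both other media. SLC38A2, a sodium-coupled carrier of glutamine and other neutral amino acids, measured 914, 977, 1056 and 995 CPM at pH 7.4, 719, 690.4, 713 and 691 CPM at pH 6.9, and 893, 1252, 683 and 1086 CPM at pH 6.4. Repeat 3 at pH 6.4 lay below the mild libraries and the other strong-acid libraries far above them. The second step rose by 0.48 ± 0.14 (adjusted p = 0.0296), the first was -0.49 ± 0.14 (adjusted p = 0.131), and the curvature was -0.48 ± 0.12. DESeq2 called it (adjusted p = 0.0279), as did edgeR without that library (adjusted p = 0.00434).

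SQSTM1, the autophagy receptor p62 (ENSG00000161011, chromosome 5, 179806398 to 179838078), measured 459, 468, 459.9 and 401 CPM at pH 7.4, 376, 372, 375 and 328 CPM at pH 6.9, and 475, 477, 418 and 418 CPM at pH 6.4. Its mild libraries lay below all others, and the means at pH 7.4 and pH 6.4 were both 447 CPM. The curvature was -0.30 ± 0.07, with adjusted p = 0.323 in edgeR, 0.077 with the repeat block, 0.018 in DESeq2 and 0.0172 without repeat 3 at pH 6.4. The named dips also included TMEM171, at 16.6 to 19.9 CPM at pH 6.9 and 20.4 to 29.4 CPM elsewhere, and CLEC2B, a lectin-like receptor gene, at 2.62 to 3.50 CPM against 3.98 to 5.55 CPM. For TMEM171 and CLEC2B the naming rule required that separation. Without repeat 3 at pH 6.4 SQSTM1 and CLEC2B were late rises and not dips, with adjusted p = 0.0153 for CLEC2B and 0.011 for TMEM171. SQSTM1 is also an NRF2 target, and the 26 tested NRF2 targets had a median curvature of -0.16 with 0 above and 4 below the midpoint at an unadjusted p under 0.05. For FTL, the ferritin light chain, the value was -0.30 ± 0.10.

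Late rises included 1 acid-base transporter, SLC4A7, and the lysosomal genes NPC1 and ATP6V0A1. SLC4A7, an electroneutral sodium bicarbonate cotransporter that brings base into the cell (ENSG00000033867, chromosome 3, 27372721 to 27484420), measured 53.3, 51.2, 68.3 and 70.9 CPM at pH 7.4, 49.7, 57.2, 54.7 and 59.4 CPM at pH 6.9, and 119, 171, 83.3 and 166 CPM at pH 6.4. The mild and neutral libraries overlapped, and all strong-acid libraries lay above them. The first step was -0.14 ± 0.19 (edgeR adjusted p = 0.849) and the second a rise of 1.29 ± 0.19 (2.44-fold, adjusted p = 0.00242). Its curvature was -0.71 ± 0.16, with adjusted p = 0.323 in edgeR, 0.018 in DESeq2 and 0.00422 without repeat 3 at pH 6.4. Of the 26 tested acid-base transporters it was the 1 that DESeq2 called; the list's median curvature was 0.06, and SLC16A3 and BSG, the lactate carrier MCT4 and its chaperone, had 0.21 ± 0.11 and -0.06 ± 0.08.

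NPC1, which exports cholesterol from lysosomes (chromosome 18, 23506184 to 23586898), measured 169, 179.9, 163 and 171 CPM at pH 7.4, 169, 199, 167 and 176 CPM at pH 6.9, and 315, 385, 241 and 326 CPM at pH 6.4. The neutral and mild libraries overlapped, with a first step of 0.06 ± 0.11 (edgeR adjusted p = 0.91), and it rose 1.78-fold in the second (adjusted p = 0.0018). ATP6V0A1, a subunit of the proton-pumping V-ATPase, rose 1.57-fold in the second step, from 39.4 ± 3.31 to 61.8 ± 10.8 CPM (adjusted p = 0.00459). The curvatures were -0.39 ± 0.10 for NPC1 and -0.40 ± 0.10 for ATP6V0A1, both called by DESeq2 (adjusted p = 0.0448 and 0.0409). Across the 35 tested lysosome and autophagy genes the median was -0.08, with 0 above and 6 below the midpoint at an unadjusted p under 0.05.

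IER3, an immediate early gene, had means of 441 ± 39.9, 426 ± 21.3 and 699.9 ± 122 CPM, and PPARG, the lipid-sensing nuclear receptor, had 66.3 ± 4.52, 59.2 ± 2.77 and 78.8 ± 5.71 CPM. The second step rose in both (adjusted p = 0.00307 and 0.00589), and their curvatures were -0.38 ± 0.10 and -0.29 ± 0.07. The largest late rises by the naming rule were low in the milder media. RAB3B, a small GTPase of vesicle release, measured 2.06, 1.34, 1.30 and 1.69 CPM at pH 7.4, 1.31, 1.37, 0.866 and 0.816 CPM at pH 6.9, and 4.93, 11.7, 1.58 and 12.6 CPM at pH 6.4. Repeat 3 at pH 6.4 stayed within the neutral range, while the other strong-acid libraries were far above it. The curvature was -1.67 ± 0.44 (adjusted p = 0.324 in edgeR, 0.018 in DESeq2 and 0.00458 without that library). AOC2, an amine oxidase gene, the potassium channel gene KCNJ14 and the rhomboid protease gene RHBDL1 had curvatures of -1.28 ± 0.32, -0.94 ± 0.25 and -1.14 ± 0.27.

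The naming rule gave TLR3, FAM111B, ADAM28 and C5 as late falls. TLR3, the endosomal receptor of double-stranded RNA (ENSG00000164342, chromosome 4, 186069152 to 186088069), measured 9.70, 9.99, 8.75 and 6.91 CPM at pH 7.4, 7.74, 5.89, 7.61 and 6.08 CPM at pH 6.9, and 1.61, 1.06, 2.90 and 0.993 CPM at pH 6.4. The milder media overlapped and the strong-acid libraries lay below both, where the naming rule required a separation from pH 6.9. The second step was a 4.13-fold fall (adjusted p = 0.00195), the first -0.37 ± 0.27 (adjusted p = 0.655), and the curvature 0.84 ± 0.23 (adjusted p = 0.325 in edgeR, 0.0488 in DESeq2 and 0.00458 without repeat 3 at pH 6.4). C5, the complement component, had 15.0 to 17.6 CPM at pH 6.9 and at most 14.1 CPM in any other library, and fell 2.06-fold in the second step (adjusted p = 0.00661).

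FAM111B, a protease gene of cycling cells, fell 2.56-fold in the second step, from 79.8 ± 7.15 to 31.2 ± 16.5 CPM (adjusted p = 0.00547), and ADAM28, a metalloprotease gene, fell 2.46-fold (adjusted p = 0.00485). Of the interferon response list, 30 of 37 tested members had estimates above the midpoint, with a median curvature of 0.16, but 2 above and 1 below at an unadjusted p under 0.05 and none called by DESeq2. Its abundant members IFIT1 and IFIT3 had 0.25 ± 0.22 and 0.16 ± 0.18.

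The 15 leaders of the strong-acid response had curvatures from -0.79 in OVGP1 to 0.89 in CHAC1, and CHAC1 was the 1 member with a DESeq2 call. The rule for near-linear genes named AREG, HOXB9, KLF9 and MAP2, whose 95% intervals of the curvature lay within 0.5 of 0. AREG, the growth factor amphiregulin (ENSG00000109321, chromosome 4, 74445134 to 74455009), measured 39.4, 44.3, 46.1 and 42.9 CPM at pH 7.4, 92.1, 111, 92.5 and 80.4 CPM at pH 6.9, and 269.9, 339, 181 and 242 CPM at pH 6.4. The media did not overlap. It rose in both steps, 2.18-fold (adjusted p = 0.00339) and 2.74-fold (adjusted p = 0.000535), with a curvature of -0.16 (95% interval -0.45 to 0.12).

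The homeobox gene HOXB9 and the transcription factor gene KLF9 likewise rose in both steps, with curvatures of -0.17 ± 0.15 and -0.08 ± 0.18, and MAP2, a microtubule-associated protein gene, fell in both, with -0.04 ± 0.21. Near-linear holds for the pH 6.9 label: weighted for pH 6.7, the values were -0.68 for AREG (adjusted p = 0.063), -0.57 for HOXB9, -0.51 for KLF9 and 0.39 for MAP2. AKR1B1, aldose reductase, fell 2.95-fold and then 1.98-fold, and its curvature was -0.29 ± 0.14 (edgeR adjusted p = 0.462). TXNIP, a MondoA target that restrains glucose uptake, had a first step of 0.89 ± 0.32 (adjusted p = 0.259), a second step that rose 3.71-fold (adjusted p = 0.00418) and a curvature of -0.50 (95% interval -1.10 to 0.10). That interval includes both a straight course and a late rise of the size seen in SLC4A7. Among 8 tested MondoA targets 7 had estimates below the midpoint, with a median of -0.14, and 1 passed an unadjusted p under 0.05.

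**Figure D4:**
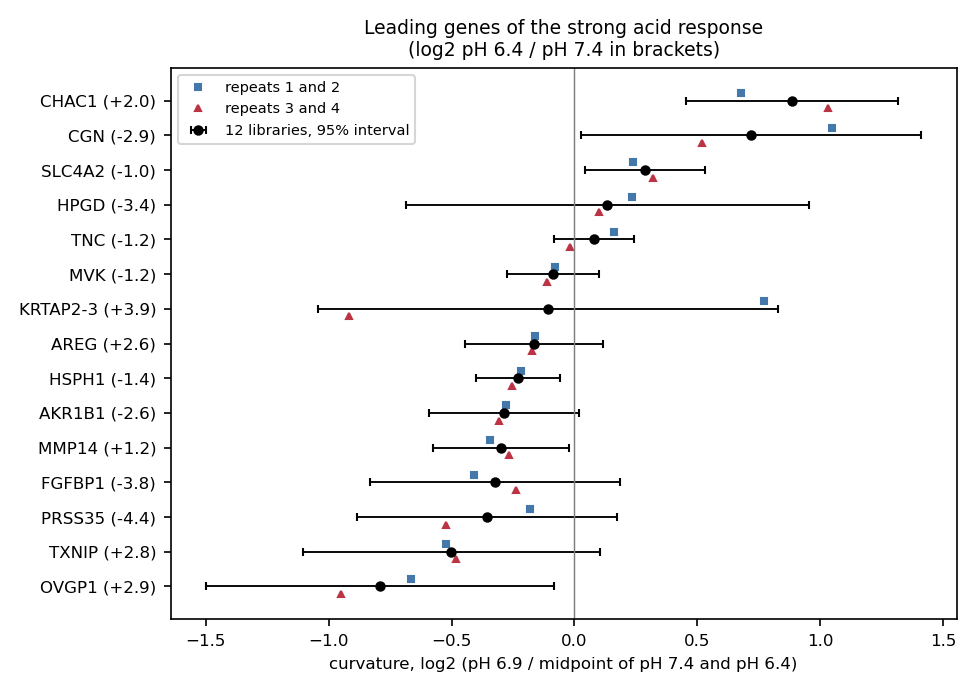
Curvature (x axis, log2 of pH 6.9 over the midpoint) of the 15 leaders of the strong-acid response (y axis, with the log2 change from pH 7.4 to pH 6.4 in brackets), as the estimate from 12 libraries with its 95% interval and as estimates within repeats 1 and 2 and within repeats 3 and 4. CHAC1 is highest at 0.89, AREG and MVK have short intervals that include 0, and TXNIP and KRTAP2-3 have wide ones.

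Several further lists had medians below 0. Ribosome biogenesis had a median curvature of -0.12 over 29 genes, with 8 below and 0 above the midpoint at an unadjusted p under 0.05, and heat shock genes had -0.16 over 19, with 7 below and 1 above. HSPH1, a disaggregating co-chaperone, fell in both steps, by 0.93 ± 0.09 (adjusted p = 0.000923) and 0.47 ± 0.09 (adjusted p = 0.00605), with a curvature of -0.23 ± 0.08. HSPA8, the constitutive Hsp70, had -0.30 ± 0.12. The 9 tested proton sensors and acid-gated channels had a median of -0.22, with PACC1, a proton-activated chloride channel, at -0.37 ± 0.15 and ASIC1 at 0.21 ± 0.13. Matrix genes were spread on both sides, with 3 above and 8 below at an unadjusted p under 0.05 among 40 and a median of 0.01.

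Housekeeping groups were near 0. Cytosolic ribosomal proteins had a median of -0.01 over 46 genes and nuclear oxidative phosphorylation 0.01 over 38, and in both 0 genes passed an unadjusted p under 0.05. Glycolysis had 0.06 over 22 genes, with 3 above and 2 below, and its most abundant members PKM and ENO1 had 0.02 ± 0.07 and 0.08 ± 0.08. Hypoxia targets had 0.05 over 23 genes, with 4 above and 2 below. The 13 tested mitochondrially encoded mRNAs had 0.10, with 0 passing. Among markers of other cell types 0 of 5 leukocyte, 0 of 3 endothelial and 0 of 5 fibroblast or muscle-like markers passed an unadjusted p under 0.05, and 2 of 8 luminal markers lay below the midpoint at that p.

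**Figure D5:**
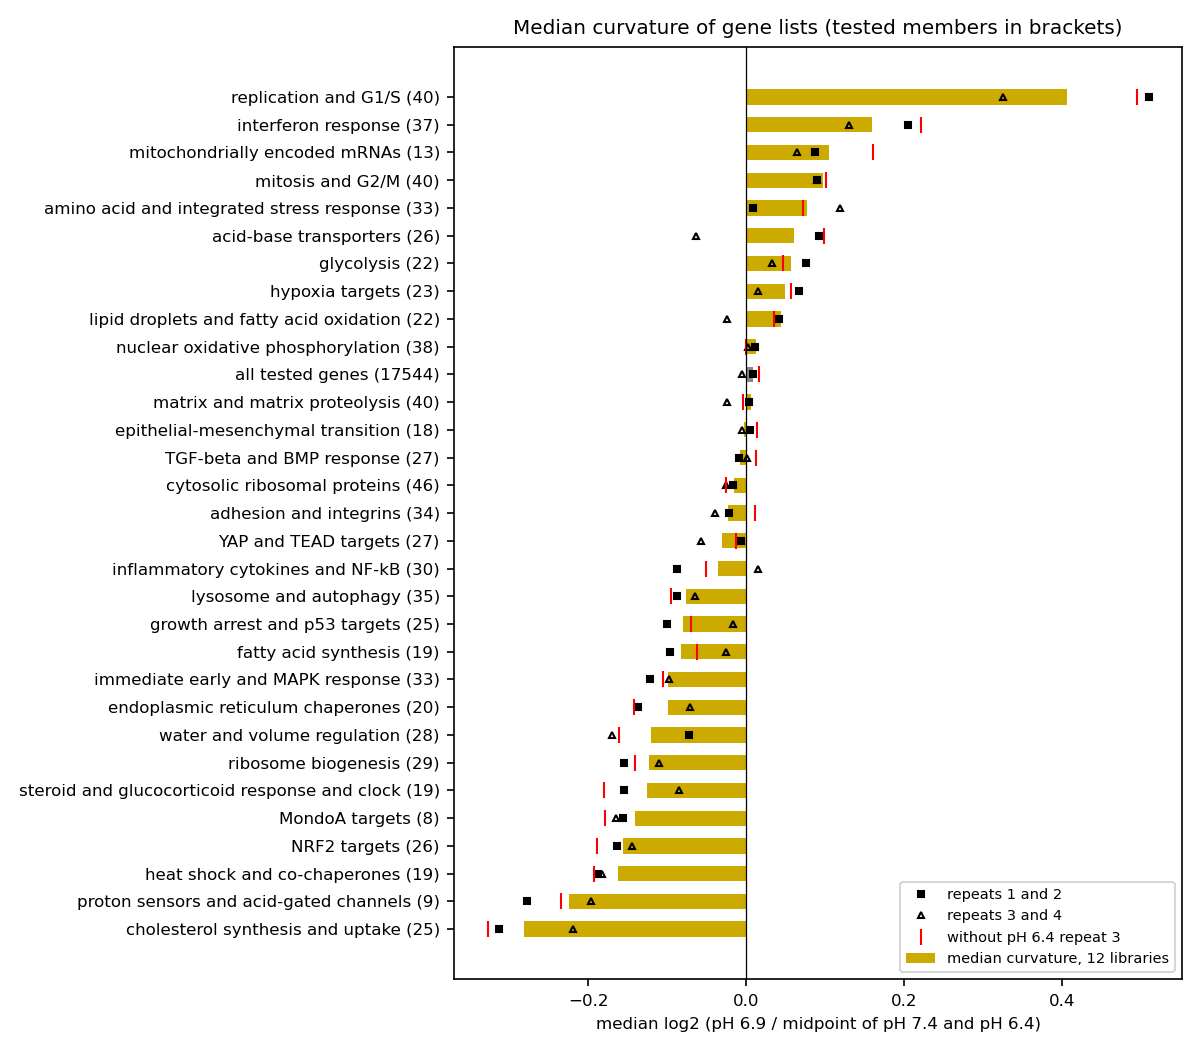
Median curvature (x axis, log2 of pH 6.9 over the midpoint) of each gene list (y axis, tested members in brackets), as bars over all 12 libraries, with squares for repeats 1 and 2, triangles for repeats 3 and 4 and a further mark without repeat 3 at pH 6.4; the grey bar is all tested genes at 0.01. Replication is highest at 0.41 and cholesterol lowest at -0.28, and both lie on the same side of 0 in every subset plotted.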

How the data were processed

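Poly(A) RNA libraries were made with a stranded kit from MDA-MB-231 cells after 24 h at pH 7.4, 6.9 or 6.4 (4 per medium). The authors deposited raw read counts per gene in 1 table, made with STAR on GRCh38.p13 (hg38) and featureCounts (per the submitters' processing notes). Their versions, strand option and treatment of multi-mapped reads were not given in the sources used here. Genes with an overlapping neighbour are therefore uncertain (PCK2, FAM117A, RELN, ADAM28, CLEC2B, KIF15, KIF11, ZWILCH, SQSTM1, POLE2, SLC38A2, SLC4A7, NPC1, ATP6V0A1, PPARG, IER3, RAB3B, KCNJ14, TOP2A, MCM7, HOXB9, MAP2, MVK, SLC16A3, BSG, ANLN, IFIT1 and IFIT3 among others), as are genes with pseudogene copies (PSAT1, PCNA, AKR1B1, PKM, ENO1, HSPA8 and FTL) or paralogs (AOC2 and KRTAP2-3). The table held 60664 genes, of which 60463 matched a symbol. Counts of genes with no symbol made up at most 0.00711% of a library. No 2 libraries were copies: at least 22391 genes differed within each of 66 pairs.

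In R 4.3.3, edgeR 4.0.16 (filterByExpr, TMM, 1 term per medium, robust quasi-likelihood test, 9 residual degrees of freedom, common coefficient of variation 0.198) tested the curvature and its steps, with Benjamini-Hochberg adjustment over 17544 genes and a threshold of 0.05. DESeq2 1.42.0, limma 3.58.1 and other scalings, filters and left-out libraries were alternatives. Every adjusted p without a tool named is edgeR's. On simulated counts with 200 altered genes among 17179, edgeR recovered 50.7%, 70.1% and 87.9% of curvatures of 1.5-fold, 2-fold and 4-fold, and called 0.0471% of the rest. DESeq2 recovered 61.2%, 73.1% and 89.4%, and called 0.194%. The simulated counts were drawn independently for each library. They carried no deviations shared by same-numbered libraries and no library that stands apart from its group. These shares therefore do not measure the power or the false calls of either test in the real libraries. Same-numbered libraries deviated together in all 12 pairs (correlations 0.289 to 0.776, 10 of 12 highest with their own number), so repeat numbers were taken to pair the samples, as a hint from the data. Only the fits with repeat number as a block used this pairing. The SEs, intervals and adjusted p of the main fit did not. The members and lists were chosen with earlier results of these data known. The rule for named genes took, per pattern, the 4 largest curvatures among called genes with at least 5 CPM in the highest medium and no overlap of libraries, up to 3 called members per list or otherwise the 2 most abundant, the 4 largest near-linear changes and all leaders. Since edgeR called none, it was applied to DESeq2's calls, a choice made after that result was seen. Coordinates are from GENCODE (GRCh38). Some named genes are not reported here. Promoters matched 89 of 113 named genes.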

Additional observations from a re-analysis of the deposited data

Results flagged for a closer look

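In 11 of the 178 groups of 4 libraries that were checked, 1 library lay far from the other 3, with a gap that took nearly all of the group's range. Chance gives about 1 in 20 groups. Repeat 4 was low for MSMO1 at pH 7.4 (246 CPM) and at pH 6.9 (137 CPM), and for SQSTM1 at pH 7.4 (401 CPM) and at pH 6.9 (328 CPM). Repeat 4 was high at pH 6.9 for PCK2 (27.8 CPM) and SERPINE2 (30.3 CPM). KIF15 was high in repeat 3 at pH 6.4 (65.2 CPM) and MVK in repeat 3 at pH 6.9 (35.7 CPM). RHBDL1 was high in repeat 1 at pH 7.4 (3.83 CPM), KLF9 in repeat 2 at pH 7.4 (11.2 CPM) and MAP2 in repeat 2 at pH 6.4 (8.13 CPM).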

How the results depend on the processing

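Calls, given as higher, lower, peaks, dips, early, late and unequal steps, were 51, 51, 11, 10, 15, 66 and 0 in DESeq2. They were 740, 540, 91, 47, 89, 1034 and 18 in limma voom, and 10, 3, 1, 2, 3, 7 and 0 with no filter on low counts. With weights for pH 6.7 (0.3 and 0.7) they were 1, 1, 0, 0, 0, 1 and 1. Without repeat 1 at pH 7.4, repeat 2 at pH 6.9 and repeat 3 at pH 6.4 they were 475, 407, 3, 2, 11, 860 and 1. Leaving out each library in turn gave 0 to 587, 0 to 530, 0 to 27, 0 to 23, 0 to 34, 0 to 1021 and 0 to 6, with all calls in the fit without repeat 3 at pH 6.4, and a share reached at pH 6.9 of 26.9% to 33.1%. That share was 24.4% in voom, 24.3% without repeat 1 at pH 7.4 and repeat 2 at pH 6.9, and 21.5% without those and repeat 3 at pH 6.4. DESeq2 size factors, library size, a stricter filter, a 1.2-fold threshold, repeats 1 and 2 alone, and repeats 3 and 4 alone called 0 and 0.

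The replicate block, for which repeat numbers pair the samples, called 0 higher and 0 lower. Alternatives chosen after seeing the data were the block without repeat 3 at pH 6.4 (1634, 1631, 173, 111, 181, 2612 and 148), DESeq2 without it (972, 1070, 78, 54, 89, 1767 and 34) and edgeR without repeat 3 of every medium (98, 55, 0, 1, 5, 147 and 0). The cause was not tested. Each gene named by the rule and called by DESeq2 had the same sign of curvature under all 29 settings. FDFT1, FEN1, LIG1, RRM2 and TYMS were not followed. These genes were picked for a call and a large curvature, and the settings reuse the same libraries or parts of them. A constant sign was therefore likely from the start and adds no support to the calls. The sign changed under at least 1 setting for MAP2, HPGD, FGFBP1, PRSS35, AKR1B1, TNC, KLF9, MVK, HSPH1 and KRTAP2-3.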
